A study of Mus musculus with 768 samples.

Results

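The genes of the proteasome other than its immunosubunits were followed in single NK cells from tumors of WT and PD-1-/- mice. Of the 24490 gene entries in the files, 50 carry a symbol made of Psm, a letter from a to g and a number. Psmb8, Psmb9 and Psmb10, which encode the immunosubunits, were set aside for comparison, and the 47 others are the members. They comprise 14 genes of the core particle, 17 of the regulatory particle, the activators, the inhibitor Psmf1, assembly factors, Psma8 and Psmb11 of tissue-restricted core particles, and Psmc3ip, a recombination factor that shares the letters of the symbol but is no subunit.

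The proteasome degrades proteins marked with ubiquitin. Its core particle is a barrel of stacked alpha and beta rings whose catalytic beta subunits face the inside. The regulatory particle caps the barrel, where its lid removes ubiquitin and its base of ATPases unfolds the substrate. Immune cells, and other cells under interferon, use immunosubunits in place of the catalytic subunits, and the peptides made by the proteasome feed antigen presentation on MHC class I.

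The tumor was MTAP1A, an MCA-induced fibrosarcoma clone that lacks Tap1. Tumor-infiltrating NK cells were sorted as NK1.1+ cells that lacked CD3 and GR1, among other markers, and sequenced with SMART-SEQ2, a full-length method that does not mark strand and carries no molecular identifiers. The WT plate held cells of pooled tumors from 3 C57BL/6 mice and the PD-1-/- plate cells of pooled tumors from 3 mice of the same background that lack PD-1 throughout the body. The recipients were young adult males per the study's methods. With a single pool on a single plate per genotype, an effect of the plate cannot be told apart from one of PD-1, the animal of a cell is not known, and no test between genotypes was possible.

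Wells with 1000 to 3500 detected genes were kept, a detected gene being one above 0 RPKM (reads per kilobase of transcript, scaled to the size of the library). This left 726 cells of 768 wells, 360 of them WT and the others PD-1-/-. The median number of detected genes was 2264.5 in WT and 2262.5 in PD-1-/- cells, and the median number of reads recovered from the RPKM steps was 275752 and 291766. The 8 NK cell markers were found in 61.9% (Eomes) to 100% (Fcer1g) of the WT cells and in 55.2% to 99.7% of the PD-1-/- cells. The 10 T cell markers were found in 0% (Themis) to 14.4% (Cd3d) and in 0.273% to 16.9%, with a summed mean of 247.9 and 399.2 RPKM. CD3 transcripts (Cd3d, Cd3e, Cd3g) gave reads in 65 WT and 83 PD-1-/- cells although the sort excluded CD3 protein. Pdcd1, the targeted gene, was detected in 9 WT cells (2.5%, exact binomial 95% interval 1.15% to 4.69%) and in 47 PD-1-/- cells (12.8%, 9.59% to 16.7%). Its mean over cells was close, at 14.4 RPKM in WT and 13.9 in PD-1-/- cells. The detected cells had medians of 394.7 and 89.5 RPKM. The deletion in these mice, as the study describes it, removes only a stretch of the gene, so that whole-gene values do not check the label.

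The core particle was detected gene by gene in a part of the cells, never in all of them. The share of cells with a core gene above 0 RPKM ran from 41.9% (Psmb7) to 81.1% (Psmb1) in WT and from 42.9% (Psmb7) to 77.6% (Psmb1) in PD-1-/- cells, with medians over the 14 genes of 61.7% and 59.6%. The lowest value over cells was 0 for each of these genes. All intervals on shares are exact binomial 95% intervals that cover counting error only.

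Among the alpha subunits, which form the outer rings and gate the entry to the barrel, Psma7 and Psma2 led. Psma7 was detected in 77.8% of WT cells (73.1% to 81.97%) with a median of 273.5 and a maximum of 1549 RPKM, and in 76.5% of PD-1-/- cells (71.8% to 80.8%) with a median of 248.7 and a maximum of 1484 RPKM. Psma2 was detected in 73.3% and 73.2% of cells, with medians of 301.3 and 331.8 RPKM. For Psma7 the cells of either plate thus spanned a range from no reads to over 1400 RPKM. Psma3 followed at 62.2% and 58.5%, Psma1 at 59.7% and 58.2%, Psma6 at 59.4% and 54.4%, Psma4 at 49.4% and 52.2%, and Psma5 at 48.3% and 48.9%.

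Among the beta subunits, Psmb1, a structural subunit of the inner rings, was detected in 81.1% of WT cells (76.7% to 85.02%) with a median of 316.8 and a maximum of 2025 RPKM. In PD-1-/- cells its share was 77.6% (72.97% to 81.8%), its median 263.1 and its maximum 2748 RPKM. Psmb4, another structural subunit, had means of 370.2 and 385.8 RPKM and shares of 70.3% and 72.7%. The genes of the catalytic subunits stood lower in part, with Psmb6 in 66.7% and 60.7%, Psmb5 in 54.2% and 57.6%, and Psmb7 in 41.9% and 42.9% of cells. Psmb7 had a median of 0 RPKM in both genotypes, and its detected cells a median of 251.2 and 238.5 RPKM. The intervals of WT and PD-1-/- cells did not overlap for 0 of the 47 members, as the plot of shares shows. This is near the background, since they did not overlap for 0.763% of all genes detected in a kept cell and for 1.63% of those in at least 20% of cells of each genotype.

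**Figure D1:**
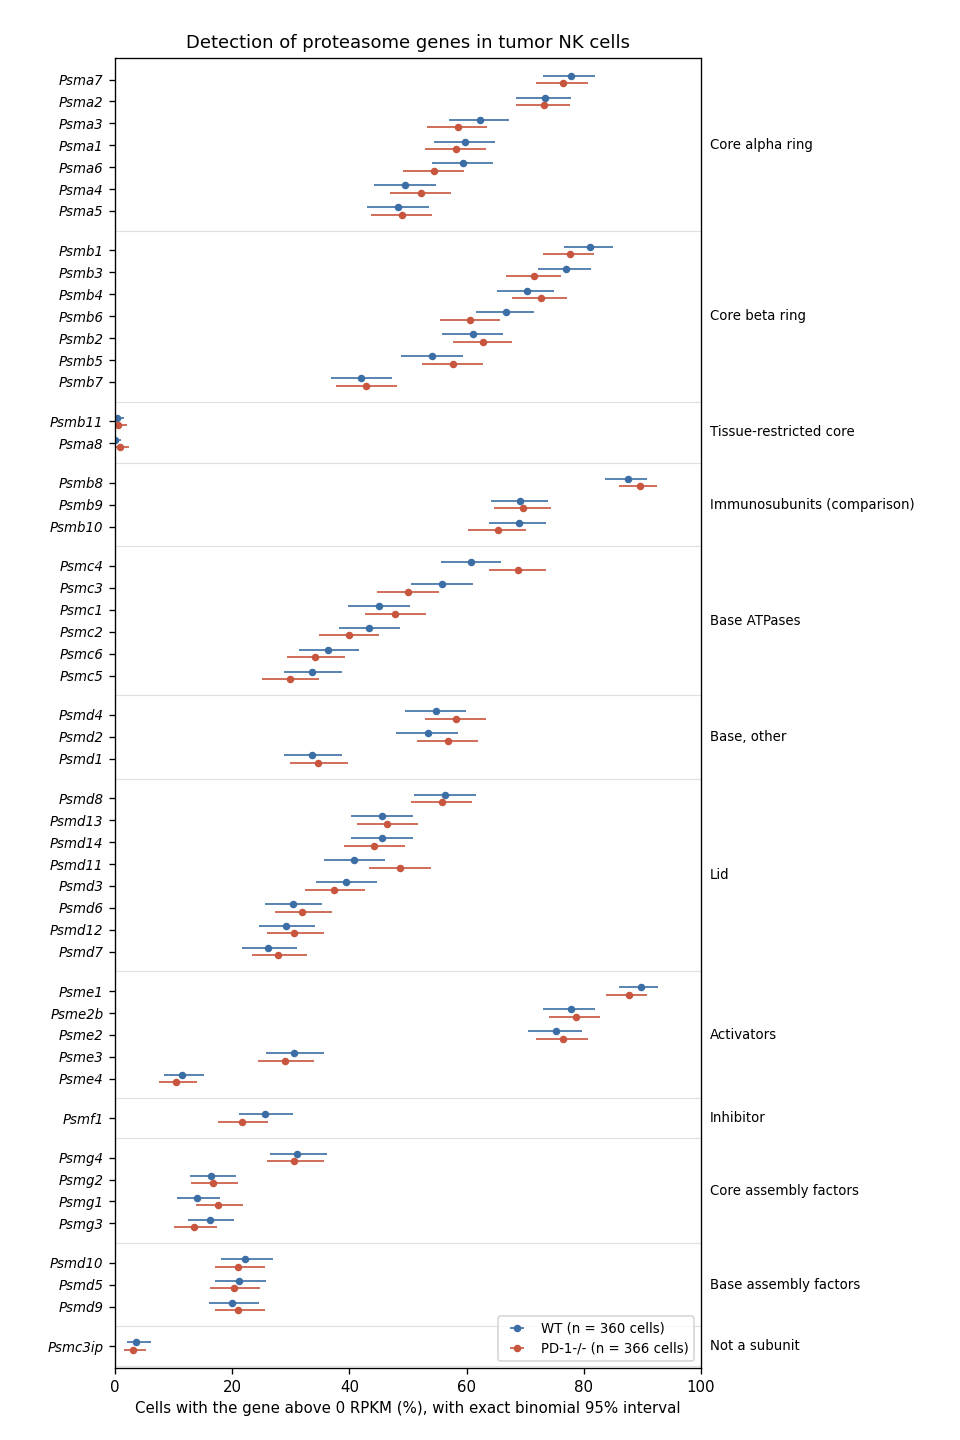
Share of kept cells (x axis, percent) with each proteasome gene above 0 RPKM, in WT (blue) and PD-1-/- cells (red), with exact binomial 95% intervals that cover counting error only. Genes are grouped by role, and 0 of the 47 members have WT and PD-1-/- intervals that do not overlap, against 0.763% of all genes detected in a kept cell.

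Detections rested on many reads for most genes. Over the 31 core and regulatory particle genes, the median number of recovered reads in a cell with the gene detected had a median over genes of 104.5 in WT, and it was lowest for Psma3, at 13 in WT and 17 in PD-1-/- cells. A single read carried a median of 4.13% and 4.50% of the detections. Without molecular identifiers, these reads do not count the transcripts captured, and a gene at 0 RPKM in a cell is not shown to be absent. Each cell was also thinned to 100000 reads, cells under that depth being left out (31 WT and 15 PD-1-/-). The median number of core genes per cell was 9 before and after in both genotypes. The median number of detected genes was 2252 and 2267 before and 1759 and 1758 after. Genes without recovered reads counted as not detected after thinning, so this fall mixes their loss with that of depth. All 14 core genes had recovered reads, so the counts of core and of detected genes are not alike.

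Part of the difference in level between core genes ran beside the sequence they share with other loci. For each gene, the share of the 50-base stretches of its coding sequence found in transcripts of any other gene of the GENCODE annotation was computed. Of the 47 members 27 shared none, whereas Psma3 shared 85.6%, Psma5 79.1%, Psmb3 70.7% and Psmb5 64.9%. The other loci included gene models without a Psm symbol, such as Gm13835, which alone held 85.6% of the Psma3 stretches. In the cells where they were detected, these 4 core genes had medians of 29.7 to 91.1 RPKM in WT and 35.4 to 102.4 in PD-1-/- cells. The other 27 core and regulatory genes had medians of 125.7 to 440.2 and 113.2 to 453.3 RPKM, so these groups did not overlap. The separation did not extend to the remaining members. Psme4, Psmd9 and Psmf1 shared none, yet their medians in detected WT cells were 27.04, 74.6 and 90.1 RPKM. Others that shared none, such as Psmd5 (198.1 RPKM), lay higher. Psmg3, Psme2 and Psme2b shared 52.7%, 69.5% and 70.2% and had WT medians of 215.4, 143.1 and 121.2 RPKM. Psma3 was detected in 62.2% and 58.5% of cells, a share like that of Psma1, but with a median in detected cells of 29.7 and 35.4 RPKM against 412.4 and 437.2 RPKM for Psma1. How reads that map to several places were counted is not given in the sources used here, and their part in these levels was not tested.

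**Figure D2:**
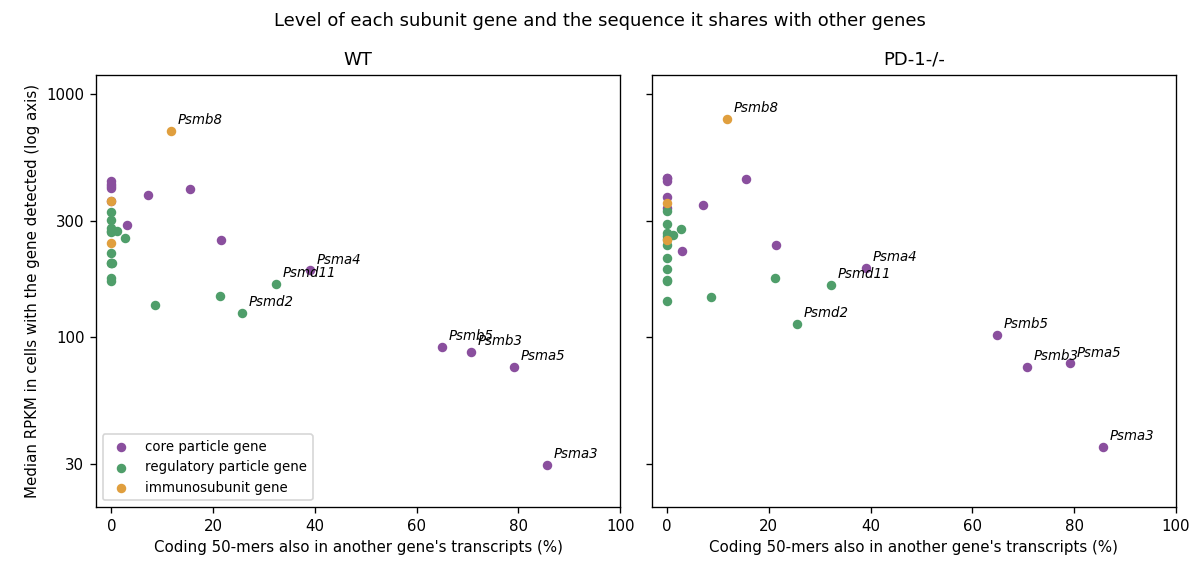
Median RPKM in cells with the gene detected (y axis, log scale) against the percentage of the coding 50-mers also present in transcripts of another gene (x axis), for core particle (purple), regulatory particle (green) and immunosubunit genes (orange), in WT (left) and PD-1-/- cells (right). Psma3, Psma5, Psmb3 and Psmb5 lie at the right and below all others in both panels.

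The catalytic subunits and the immunosubunits that replace them were detected side by side. Psmb8, which replaces Psmb5, had a mean of 721 RPKM in WT and 779 in PD-1-/- cells against 62.3 and 67.4 RPKM for Psmb5, a ratio of 11.6 in both that includes the shared sequence of Psmb5. Psmb9, which replaces Psmb6, stood at 295.6 and 293.7 RPKM against 220.98 and 171.6, a ratio of 1.34 in WT and 1.71 in PD-1-/- cells. Psmb10, which replaces Psmb7, stood at 210.5 and 182.8 RPKM against 114.4 and 107.7, a ratio of 1.84 and 1.70. All 3 pairs thus had the higher mean for the immunosubunit on both plates. Both genes of a pair occurred in the same cell in 49.7% (WT) and 52.5% (PD-1-/-) of cells for Psmb5 and Psmb8, in 48.6% and 46.2% for Psmb6 and Psmb9, and in 31.1% and 30.3% for Psmb7 and Psmb10. Over cells, Spearman's rho within these pairs lay between -0.0202 and 0.0899, so the level of one gene gave little information on the other.

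The regulatory particle was detected less often per gene than the core. Shares ran from 26.1% (Psmd7) to 60.8% (Psmc4) in WT and from 27.9% (Psmd7) to 68.9% (Psmc4) in PD-1-/- cells, with medians over the 17 genes of 43.3% and 44.3%. Of the 31 genes of both particles, 15 in WT and 14 in PD-1-/- cells had a median over cells of 0 RPKM.

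Among the 6 ATPases of the base, Psmc3 had the highest mean, at 178.2 RPKM in WT (maximum 3059, 55.8% of cells) and 147.7 in PD-1-/- cells (maximum 1652, 50% of cells). Psmc5 had means of 119.5 and 85.8 RPKM and was detected in 33.6% and 29.8% of cells. Psmc1 had means of 72.04 and 91.3 RPKM and was detected in 45% and 47.8% of cells. Psmc4 stood apart by its many traces. Its share was 60.8% in WT (55.6% to 65.9%) and 68.9% in PD-1-/- cells (63.8% to 73.6%), but 22.8% and 27.8% of these detections were a single read. Counted from 10 RPKM up, its share was 44.4% and 42.6%, and at 100000 reads per cell 51.7% and 52.1%, so that the higher share in PD-1-/- cells was not kept at the higher threshold. Psmd2, a scaffold of the base, likewise fell from 53.3% and 56.8% to 43.9% and 42.3% at 10 RPKM. Psmd4, a ubiquitin receptor of the base, was detected in 54.7% and 58.2% of cells and Psmd1, the other scaffold, in 33.6% and 34.7%.

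In the lid, Psmd14, the deubiquitinase that removes the ubiquitin chain, was detected in 45.6% and 44.3% of cells at mean levels of 134.9 and 137.3 RPKM. Psmd8, at 171.99 and 168.6 RPKM, and Psmd13, at 131.1 and 132.6 RPKM, were also close between plates. Psmd11 had means of 71.9 and 91.4 RPKM, and its share was 40.8% in WT (35.7% to 46.1%) and 48.6% in PD-1-/- cells (43.4% to 53.9%). Psmd7 and Psmd12 were the least often detected lid genes, Psmd7 in 26.1% and 27.9% of cells and Psmd12 in 29.2% and 30.6%.

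The activator Psme1, a subunit of the PA28 ring that interferon induces and that opens the core without ATP, was the most often detected member. It was found in 89.7% of WT cells (86.1% to 92.7%) with a median of 541 and a maximum of 2848 RPKM, and in 87.7% of PD-1-/- cells (83.9% to 90.9%) with a median of 467 and a maximum of 1908 RPKM. Its partner Psme2 was found in 75.3% and 76.5% of cells with medians of 99.5 and 100.4 RPKM, well below Psme1. Psme2 has a near copy, Psme2b, detected in 77.8% and 78.7% of cells, and the levels of both rose and fell together over cells (Spearman's rho 0.80 in WT and 0.808 in PD-1-/- cells). The coding sequences of 717 bases differ at 5 positions (99.3% identical), and reads of one can be counted for the other. The stretch below, bases 484 to 543 of each coding sequence from the GENCODE transcripts, holds 3 of these differences, in capitals, and shows how few positions separate the copies.
Psme2: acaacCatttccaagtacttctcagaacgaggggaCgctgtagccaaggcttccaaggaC
Psme2b: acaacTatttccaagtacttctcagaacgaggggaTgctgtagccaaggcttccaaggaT
The values of Psme2 and Psme2b are therefore uncertain one by one.

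The other activators and the factors that build the particle were sparse. Psme3, the nuclear activator PA28 gamma, was detected in 30.6% and 28.96% of cells, Psme4, the activator PA200, in 11.4% and 10.4%, and the inhibitor Psmf1 (PI31) in 25.6% and 21.6%. The core assembly factors Psmg1 to Psmg4 lay between 13.9% and 31.1% in WT and 13.4% and 30.6% in PD-1-/- cells, and the base assembly factors Psmd5, Psmd9 and Psmd10 between 20% and 22.2% and between 20.2% and 21.04%. Psma8, a testis alpha subunit, was detected in 0 WT cells, which allows a share of up to 0.833% by a floor of 3 counts (1.02% by the exact interval), and in 3 PD-1-/- cells. Psmb11, a beta subunit of thymic epithelium, was detected in 1 WT and 2 PD-1-/- cells, all of them cells with CD3 transcripts. Psmc3ip was found in 3.61% and 3.01% of cells.

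Letters of known promoter motifs were searched on both strands in the RefSeq windows from 250 bases before to 50 after the start of each gene (build GRCm38.p6), which hold 39 of the 47 members. The ETS letters ACTTCCGG occurred in 8 of 39 members (20.5%) and in 4% of all 27025 windows. They were not particular to the members, since 2 of 7 windows of CCT chaperonin genes, a comparison used below, held them (28.6%). The letters TGACNNNGC of the antioxidant response element, the element of the factors that raise proteasome genes under stress, occurred in 15.4% of members and 12.5% of all windows. Counts for members were 35.9% against 37.9% for CCAAT, 7.69% against 2.8% for the letters GCGCATGC of nuclear respiratory factor 1, 7.69% against 14.2% for TATAAA and 0% against 1.88% for the CRE letters TGACGTCA, which share their start with the antioxidant element. The windows below show the ETS letters in 2 ATPase genes and 1 lid gene and the antioxidant letters of the catalytic subunit Psmb5, in capitals, along the strand of the gene. They lie at chr12:100110157-100110196 (plus strand), chr5:21785174-21785213 (plus), chr14:14120967-14121006 (minus) and chr14:54618018-54618058 (minus), and the capitals begin 29, 85, 45 and 47 bases before the start site.
Psmc1: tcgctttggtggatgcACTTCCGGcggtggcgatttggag
Psmc2: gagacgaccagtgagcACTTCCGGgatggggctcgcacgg
Psmd6: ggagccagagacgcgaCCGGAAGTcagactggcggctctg
Psmb5: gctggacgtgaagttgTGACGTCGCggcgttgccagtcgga
In Psmd6 the ETS letters are read on the opposite strand. A match is a description of the letters only, and binding was not measured.

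Between genotypes the members were close. The log2 ratio of the means (mean RPKM + 1, PD-1-/- over WT) was computed for the 45 members whose mean reached 1 RPKM in a genotype, Psma8 and Psmb11 being below this limit. None of the 45 reached a ratio of 0.5 in either direction, against 30% of all 12030 genes above the same limit (13.5% higher and 16.5% lower in PD-1-/- cells). Frequently detected genes had smaller ratios in general: of the 3746 genes found in at least 20% of cells of each genotype, 4.08% passed 0.5 (2.11% higher and 1.98% lower), and 40 members belong to these. The median ratio of the 45 members was 0.02 (24 above and 21 below 0), against -0.03 for all genes. The median absolute ratio was 0.114 for the 40 frequent members and 0.157 for all frequent genes.

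The largest ratios were those of Psmc5 (-0.47), Psmb6 (-0.36), Psmb3 (-0.34), Psmc1 (0.34) and Psmd11 (0.34). Each of these 5 had the same sign in the upper plate rows, A to H, as in the lower rows, I to P, at -0.46 and -0.49 for Psmc5, -0.32 and -0.40 for Psmb6, -0.49 and -0.18 for Psmb3, 0.37 and 0.32 for Psmc1, and 0.17 and 0.54 for Psmd11. These 5 were picked by their ratio over all rows, which holds both parts. The choice itself favors a shared sign, so it is no replication. The study lists Psmb6 among the genes significantly higher in WT NK cells. That list compares the WT and PD-1-/- cells of this same experiment, so it is no separate check. Over all 45 members, 19 had the same sign in both parts of the plate (42.2%), against 49.5% of all genes tested. In rows A to H 5 members passed 0.5, which were Psmg1, Psmc3ip, Psme4 and Psmd12 as higher and Psmc6 as lower, where 40.1% of all genes did. In rows I to P the 4 that passed were Psmd6, Psmg2 and Psmd11 as higher and Psmc3ip as lower, where 36% of all genes did. No member passed in the same direction in both parts, and both parts of a plate come from the same pool. Shares of cells gave the same picture, with 23 members higher and 24 lower in PD-1-/- cells, and changes between a fall of 6.01 percentage points (Psmb6) and a rise of 8.02 (Psmc4).

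By role, the 7 alpha genes had a median ratio of 0.05 (5 above 0) and the 7 beta genes of -0.14 (2 above 0). The 6 ATPases had a median of -0.13 (3 above 0), the 8 lid genes of 0.06 (6 above 0), the 5 activators of -0.06 (1 above 0) and the 3 base assembly factors of 0.24. These medians differ by less than the distance between the upper and lower rows for many single genes. The 3 immunosubunits had a median of -0.01. Of 21 other genes of the pathway, 0 passed 0.5, 9 were above and 12 below 0, and the median was -0.02. Among them, the assembly factor Pomp was at -0.23, the deubiquitinases Uchl5 and Usp14 at -0.30 and 0.06, the ATPase Vcp at 0.10, and the transcription factors Nfe2l1 and Nfe2l2, which drive proteasome genes, at 0.03 and 0.05. For comparison, 4 of 15 effector genes passed 0.5, namely Ccl3 (1.01), Ccl4 (0.87), Tnfsf10 (0.85) and Ifng (0.70), all higher in PD-1-/- cells. Of all genes 30% passed, but of genes in at least 20% of cells of each genotype only 4.08% did. Ccl4 and Ifng belong to these frequent genes, as do 11 of the 15 effector genes. The 15 effector genes had a median ratio of 0.24, with 13 above and 2 below 0. In rows I to P Ifng (0.47) and Ccl4 (0.39) were below 0.5.

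**Figure D3:**
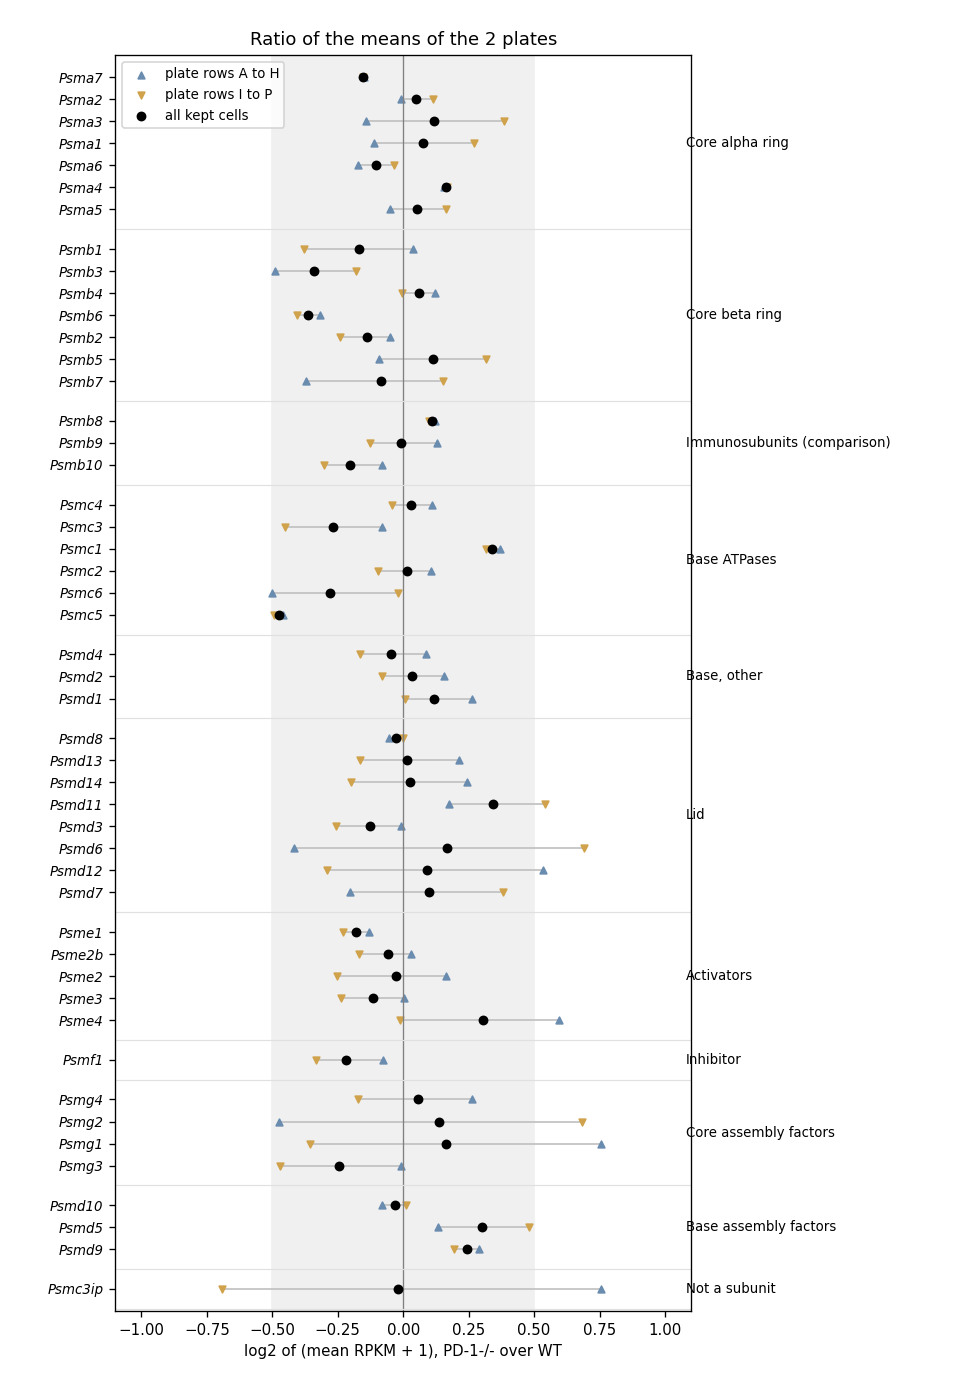
Log2 ratio of mean RPKM + 1, PD-1-/- over WT (x axis), for each member whose mean reached 1 RPKM and for the immunosubunits, over all kept cells (black), plate rows A to H (blue) and rows I to P (orange). No black point leaves the grey band from -0.5 to 0.5, and the upper and lower rows often lie on opposite sides of 0.

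Per cell, the core score (mean of ln(1 + RPKM) over the 14 core genes) ranged from 0.464 to 5.59 in WT with a median of 3.40, and from 0.469 to 5.41 in PD-1-/- cells with a median of 3.28. The means were 3.31 ± 1.01 (SD over cells) and 3.23 ± 1.05, a difference of -0.0809 that is small beside the spread of the cells. The regulatory score (17 genes) had medians of 1.97 and 2.06 and means of 2.11 ± 0.881 and 2.11 ± 0.922. A median of 9 of 14 core genes and 7 of 17 regulatory genes was detected per cell in both genotypes. Only 13 of the 726 cells had all 14 core genes detected, and in none were all of them undetected. In cells with CD3 transcripts the mean core score was 3.30 in WT and 3.28 in PD-1-/- cells, against 3.31 and 3.21 in the other cells.

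Both scores rose with the number of detected genes. Over quartiles of detected genes (cells of both genotypes), the mean core score was 2.34, 3.03, 3.53 and 4.16, and the mean regulatory score 1.48, 1.80, 2.25 and 2.92. In the lowest quartile the core score was 2.49 in WT and 2.21 in PD-1-/- cells, and in the highest 4.16 and 4.17. The rise was not particular to the proteasome, since the score of the CCT chaperonin, a cytosolic folding machine of 8 genes, rose from 2.13 to 4.23 and that of the immunosubunits from 3.24 to 5.40. Spearman's rho of the core score with detected genes, members left out of the count, was 0.648 over WT and 0.709 over PD-1-/- cells, and that of the regulatory score 0.597 and 0.624. With recovered reads, rho of the core score was 0.220 and 0.153. Cells with at least 2 of 5 cycling markers (12 WT and 22 PD-1-/-) had mean core scores of 3.92 and 3.54, against 3.32 and 3.11 in cells with none. They also had more detected genes, with medians of 2923.5 and 2698 against 2251 and 2157, and the adjusted rho of the summed cycling markers with the core score was -0.106 in WT and -0.00714 in PD-1-/- cells.

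**Figure D4:**
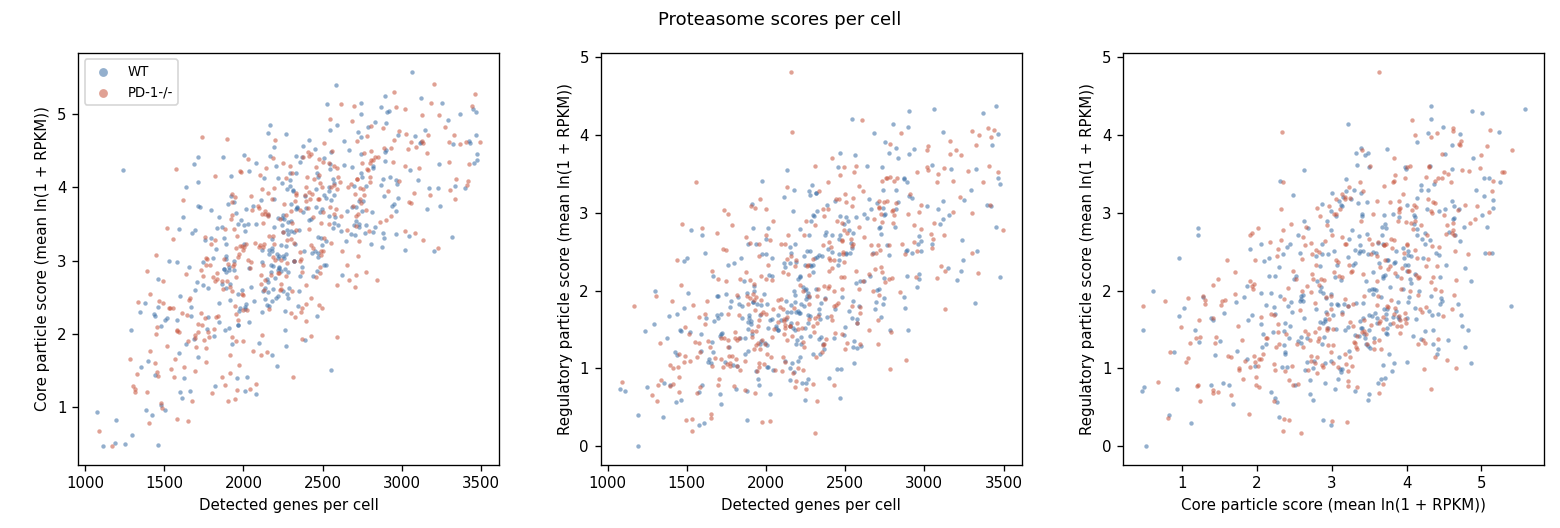
Core score against detected genes (left), regulatory score against detected genes (middle) and regulatory against core score (right), with each point 1 of the 726 kept cells, WT in blue and PD-1-/- in red, and scores in mean ln(1 + RPKM). Both scores rise along detected genes, and the colors overlap throughout.

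The core and regulatory scores were correlated over cells, with rho 0.416 in WT and 0.532 in PD-1-/- cells, but both share the library and its number of detected genes. After the rank of detected genes was regressed out of both, rho was 0.0478 and 0.162. Within quartiles of detected genes it ran from -0.00794 to 0.253 in WT and from 0.00172 to 0.421 in PD-1-/- cells, highest in the fourth quartile of both. The alpha and beta rings had an adjusted rho of 0.122 and 0.110, and the ATPases and the lid of 0.154 and 0.168. The adjusted rho of the core score with the CCT score was 0.176 and 0.262, with the ribosomal protein score 0.162 and 0.184, and with the immunosubunit score 0.0474 and 0.0196. By adjusted rho the core score thus followed the CCT score more closely than the score of the regulatory particle on both plates. This difference was not tested. CCT genes were also detected more often, in a median over genes of 61.1% of WT and 61.1% of PD-1-/- cells. For regulatory genes these medians were 43.3% and 44.3%. The part of detection in this order of the rho values was not tested. In the fourth quartile of PD-1-/- cells the order was reversed, with 0.265 for CCT and 0.421 for the regulatory score. In all other quartiles of both genotypes CCT was higher.

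Correlations between single genes of the particle were low. Over the 465 pairs of core and regulatory genes the median rho was 0.0481 in WT and 0.0587 in PD-1-/- cells, and 0.0182 and 0.0205 after adjustment, against 0.00235 and 0.00123 for pairs of all other frequent genes. Pairs of CCT genes had adjusted medians of 0.0666 and 0.0424, and pairs of ribosomal protein genes of 0.259 in both. Ribosomal protein genes were detected far more often than particle genes, in a median of 95.7% and 95.5% of cells over 76 genes. The part of detection in these values was not tested. Each core gene was also set against the mean of the other 13. The adjusted rho was highest for Psmb5 in WT (0.236, but 0.0768 in PD-1-/- cells) and for Psma3 in PD-1-/- cells (0.143, and 0.0860 in WT), both genes with shared sequence. Correlations of this size over sparse values are given as a description only.

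Of 15 effector genes of NK cells, 11 were frequent enough to be set against the core score. Before adjustment, Ccl5 had the lowest rho of these (-0.294 in WT and -0.378 in PD-1-/- cells), and its adjusted rho was 0.0255 and -0.0584. Unadjusted rho was also negative on both plates for Gzma (-0.0362 and -0.119) and Nkg7 (-0.0292 and -0.107). It was 0.149 and 0.0782 for Gzmb and 0.0786 and 0.198 for Prf1, where all genes compared had medians of 0.0940 and 0.107. The median adjusted rho of the 11 genes was 0.0255 and 0.0747, where the 3708 genes compared had medians of 0.0123 and 0.0103 and lay between -0.0853 and 0.114 in WT and between -0.0895 and 0.113 in PD-1-/- cells from the 5th to the 95th percentile. Gzmb, a granzyme, was above the 95th percentile on both plates (0.119 and 0.162), whereas Gzma (0.158 and 0.102), the granule protein gene Nkg7 (0.119 and 0.0302) and the pore former Prf1 (-0.00649 and 0.184) were above it on one of them. With recovered reads regressed out as well, Gzmb (0.109) and Nkg7 (0.107) lay below this percentile (0.112) in WT cells. The activators, with medians of 0.0960 and 0.158 over 4 genes, and the CCT genes, with 0.0939 and 0.129 over 8, lay higher than the effector genes, and the other pathway genes, with 0.0208 and 0.0437 over 17, did not. The 4 activators include the near copies Psme2 and Psme2b, which are not separate signals. Over the 4 the range was 0.0828 to 0.163 in WT and 0.0501 to 0.245 in PD-1-/- cells.

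**Figure D5:**
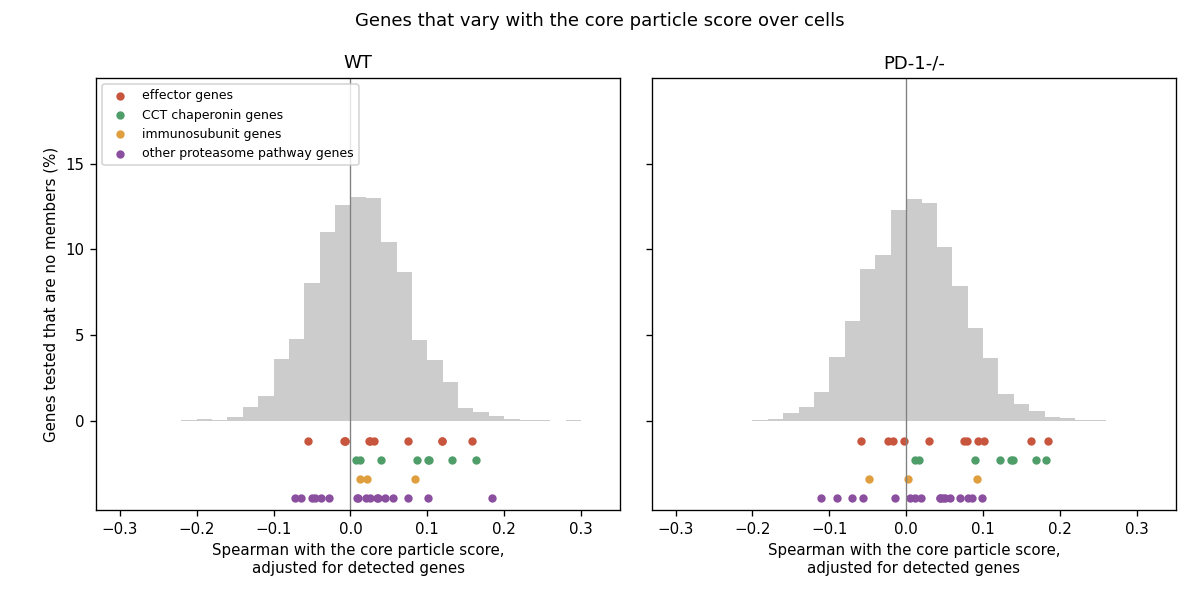
Distribution of Spearman's rho with the core score over cells, adjusted for detected genes (x axis), of the 3708 frequent genes that are no members (grey, percent of genes on the y axis), with effector, CCT, immunosubunit and other pathway genes as points below, in WT (left) and PD-1-/- cells (right). CCT genes lie at or above 0.00787 in both panels, and effector genes spread on both sides of 0.

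By the mean of both plates, the 10 genes most like the core score after adjustment included AY074887, Actb, Nme1, Snrpf, Cox7b, Eif5a, Cfl1, Eif4a1 and Nme2. AY074887 led with 0.298 and 0.207, followed by the actin gene Actb (0.222 and 0.242) and Nme1, a nucleoside diphosphate kinase (0.188 and 0.215). AY074887 overlaps exons of Psma4 on the opposite strand and the reads carry no strand, so its reads and those of Psma4 cannot be told apart there. It was detected in 38.1% and 42.1% of cells, of which 98.5% and 99.4% also had Psma4, and rho with Psma4 was 0.810 and 0.866. Against the core score without Psma4 its adjusted rho was 0.106 and 0.0117.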

How the data were processed

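NK cells were sequenced with SMART-SEQ2 on 2 plates, 1 per genotype. The authors deposited 1 table of RPKM values per plate, and the submitters' processing notes name TopHat, Cufflinks, mm9 and mm10 without version or role. The treatment of multi-mapping reads is not given in the sources used here. Members and gene lists were chosen with earlier results of these data known. The named genes were the members, the immunosubunits, listed pathway, effector, CCT and marker genes, and the 10 genes most like the core score, of which 1 is not reported here.

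Detected genes were counted over genes above 0 RPKM in at least 3 wells. Doublets were not called, and the upper limit of 3500 detected genes stood in their place. Whole reads were recovered for 9929 of 11700 genes found in at least 8 wells, with 98.9% of 710437 values below 60 reads whole within 0.01. Ratios used a pseudocount of 1 RPKM. No count model was run between plates, since each genotype was 1 sample. Adjusted correlations are Spearman's rho after regressing both ranks on the rank of detected genes, members left out, for genes in at least 20% of cells of each genotype. Scripts, checked on simulated data, ran in Python 3.11.15 with numpy 2.4.6, pandas 2.3.3 and scipy 1.17.1. Shared sequence was computed on GENCODE mouse transcripts. Alternatives covered wells kept, plate rows, cells with CD3 reads, depth, scaling, genes in the scores, pseudocounts and thresholds.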

Additional observations from a re-analysis of the deposited data

Results flagged for a closer look

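Core and regulatory particle genes were also detected in wells outside the limits on detected genes, which no comparison used. In the 12 wells below the lower limit a median of 1 of the 31 genes was detected (0 to 4 in either genotype), and in the 30 wells above the upper limit a median of 27 (16 to 30 in WT and 24 to 31 in PD-1-/- wells), against 16 in kept cells of both genotypes. They are given because this signal lies outside the main measurement.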

How the results depend on the processing

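Of the recomputed summary values, 17 moved by more than 0.1 (scores, log2 ratios and correlations), 1.5 times (counts) or 5 percentage points (median shares), and the others stayed within these limits. The count of members past a log2 ratio of 0.5, reported as 0, was 1 with 1500 to 3000 detected genes, 1 without plate rows A and B (Psmc5, -0.50), 1 at 100000 reads per cell, 1 with no limit on low values (Psma8), 3 with the mean of log2(RPKM + 1) per cell and 5 in rows A to H. It was also 5 in rows I to P, where Psmb11 reached the limit on low values. The median share of cells with a core or regulatory gene fell to 45.8% in WT and 45.6% in PD-1-/- cells when 10 RPKM was required. The rho of the core and regulatory scores was 0.275 in WT and 0.412 in PD-1-/- cells with 1500 to 3000 detected genes, and 0.276 and 0.355 with each cell scaled to a total of 10000. That of the core score with detected genes was 0.539 and 0.600, and 0.515 and 0.586, under the same alternatives. The cause of these shifts was not tested, though the narrower limits remove the cells at both ends. Scores without Psma3, Psma5, Psmb3 and Psmb5, an alternative chosen after seeing the data, moved no value. Of single members' shares, 13 of 94 fell below their exact 95% interval at 10 RPKM, 3 of 84 at 100000 reads and 2 of 94 (Psmb11) without cells with CD3 reads. No paired analysis was possible because each genotype was 1 pool. Pools, plates and the lack of molecular identifiers limit every comparison to these cells.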
